A study of Saccharomyces cerevisiae with 8 samples.

Results

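Box H/ACA small nucleolar RNAs (snoRNAs) were followed through affinity selections of Upf1p, a helicase required for nonsense-mediated mRNA decay, in budding yeast (Saccharomyces cerevisiae). The members were a list of 29 H/ACA snoRNA genes, and a member was measured when a probe set of the array was annotated to it and to no other gene. That gave 17 members with 1 probe set each, among 5656 genes measured in the same way and 9275 probe sets tested. The Upf1p-TAP group was RNA recovered from 4 selections with Upf1p carrying a TAP tag, an affinity tag that binds IgG. The mock group was RNA from 4 mock selections, which the labels do not describe further, and neither group's strain or genotype is given in the sources used here. Cells of both groups grew in YEPD, a rich medium, and each array held RNA released from IgG Sepharose by TEV protease. Selections with the same number, 1 to 4, form a pair. Input RNA was not analysed here, and equivalent amounts of RNA from both kinds of selection went on to the arrays. A value is thus a relative signal within the labelled RNA of an array and not a yield. Whether it follows an RNA's share of the recovered RNA was not tested.

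H/ACA snoRNAs fold into hairpins that hold a box H and a box ACA, and each works in a particle with 4 core proteins, of which Cbf5p is the pseudouridine synthase. The RNA pairs with a target, mostly ribosomal RNA in the nucleolus, and so picks the uridine that is turned into pseudouridine. A few H/ACA RNAs are needed for cutting the rRNA precursor. Upf1p acts mainly on cytoplasmic mRNAs during translation. The 12 members with no probe set of their own were SNR10 and SNR30, both known for rRNA processing, and SNR49, SNR80, SNR81, SNR82, SNR83, SNR84, SNR85, SNR86, SNR161 and SNR191. None of the 12 shared a probe set with another gene in the annotation. They are not analysed here.

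H/ACA snoRNAs were lower with Upf1p-TAP than in the mock selections. Of the 17 measured, 14 were lower, 0 were higher and 3 did not pass the test, where 13.5% of all tested probe sets were lower and 17.7% higher. A call is an adjusted p below 0.05 in limma, with Benjamini-Hochberg adjustment over all tested probe sets and the pair as a block. At an unadjusted p below 0.05, 15 of the 17 were lower and 0 higher, where 19.3% of all tested probe sets were lower and 23.1% higher. The background share of lower probe sets depended on scaling and was 19.0% (14.1% higher) when each array was centred on its median, with the same 14 against 0 for the counts of snoRNAs. The median log2 ratio, Upf1p-TAP minus mock, was -1.78 over the 17 snoRNAs and 0.00 over all tested probe sets. Ratios of the snoRNAs lay between -3.00 and -0.29. A drop of at least 4-fold was called for 7 of the 17 (0.679% of all tested probe sets), and of at least 2-fold for 13 (6.02%).

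**Figure D1:**
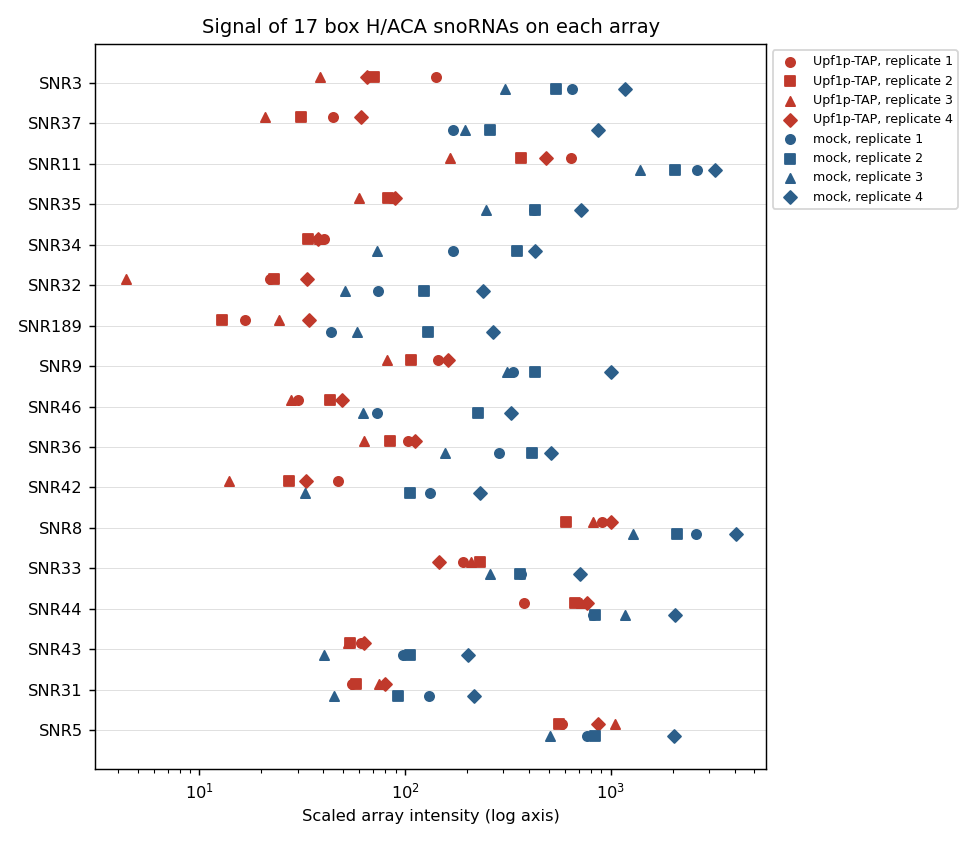
Scaled array intensity (log axis) of the 17 H/ACA snoRNAs, 1 row per snoRNA, ordered from the lowest ratio (SNR3) to the highest (SNR5). Red points are the 4 Upf1p-TAP arrays and blue points the 4 mock arrays, with 1 marker shape per pair; in 13 of the 17 rows all red points lie left of all blue points.

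Most measured members guide pseudouridylation of 25S rRNA, the large rRNA of the large ribosomal subunit. Of the 12 that guide only this rRNA, 10 were lower (13.5% of all tested probe sets), with a median log2 ratio of -1.85. The lowest ratio belonged to SNR3, among whose targets is a uridine in a helix that contacts the small subunit. Its signal on the 4 Upf1p-TAP arrays was 142, 70.9, 38.5 and 65.1, against 647, 544, 305 and 1180 on the mock arrays, in the order of the pairs. Every Upf1p-TAP value lay below every mock value, and the log2 ratio was -3.00 (SE 0.29, adjusted p = 1.33e-04), a drop of 7.98-fold.

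SNR11 had the smallest standard error of the members. It had 641, 365, 164 and 484 with Upf1p-TAP, against 2616, 2055, 1381 and 3225 in the mock. The groups did not overlap, and the log2 ratio was -2.57 (SE 0.20, adjusted p = 5.31e-05). This snoRNA was bright in the mock, and its Upf1p-TAP signal stayed above the median of all values on each of the arrays.

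SNR34, SNR37, SNR42 and SNR46 guide uridines in or near the peptidyl transferase centre, where the ribosome joins amino acids. SNR37 had 44.4, 31.2, 20.9 and 61.2 with Upf1p-TAP, against 172, 260.1, 195 and 872 in the mock. Its groups did not overlap either, with a log2 ratio of -2.88 (SE 0.29, adjusted p = 1.64e-04). SNR34 had 40.3, 33.8, 38.3 and 37.8 with Upf1p-TAP, against 170.2, 351, 72.8 and 429 in the mock. For SNR34 the Upf1p-TAP values were almost level while the mock values were widely spread, so its ratio of -2.36 had the largest standard error of the 17 (SE 0.38, adjusted p = 0.00204). SNR46 (log2 ratio -1.78, adjusted p = 0.00223) and SNR42 (-1.73, adjusted p = 0.00204) were lower as well. In SNR42 the groups overlapped, since its mock value in pair 3 was 32.5 and its Upf1p-TAP value in pair 1 was 47.3.

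The other lower guides of 25S rRNA were SNR32 (log2 ratio -2.30), SNR9 (-1.91), SNR8 (-1.49) and SNR33 (-1.03). SNR32 was the dimmest member with Upf1p-TAP, at 21.9, 23.1, 4.38 and 33.3, against 73.6, 123, 51.2 and 239 in the mock. Its value of 4.38 in pair 3 was close to the offset of 4.09 added before taking logs, and its ratio ranged from -2.64 to -1.79 over the alternative settings. SNR8 was bright in both groups, with 910, 608, 819.9 and 998 with Upf1p-TAP against 2610, 2102, 1281 and 4054 in the mock, and its groups did not overlap. SNR33 (adjusted p = 0.0279) had 191, 230.5, 209.8 and 147 with Upf1p-TAP, against 368, 361, 260.0 and 711 in the mock. Its call ended without replicate 1 of both groups (adjusted p = 0.0660) and without replicate 4 (adjusted p = 0.111), and without replicate 4 its ratio was -0.62.

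Among the guides of 18S rRNA, the rRNA of the small subunit, 2 of 3 measured were lower (13.5% of all tested probe sets). SNR35 guides a position that other enzymes then modify further. It had 85.0, 82.2, 59.7 and 89.5 with Upf1p-TAP, against 422, 426, 247 and 717 in the mock. The groups were far apart, at a log2 ratio of -2.37 (SE 0.22, adjusted p = 1.06e-04). Its ratios in the 4 pairs had the smallest spread of the 17, with an SD of 0.41. SNR36 had a log2 ratio of -1.77 (SE 0.23, adjusted p = 7.03e-04), with Upf1p-TAP values between 63.4 and 111 and mock values between 156 and 515.

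Both measured members that guide 25S as well as 18S rRNA were lower (13.5% of all tested probe sets). SNR189 had a log2 ratio of -2.03 (SE 0.35, adjusted p = 0.00247). SNR44 lies within RPS22B, a ribosomal protein gene, and is known to be made from one of its introns. It had 377, 671, 720 and 763 with Upf1p-TAP, against 818, 837, 1174 and 2052 in the mock. The groups were separate by a small margin, and the log2 ratio was -0.89 (SE 0.21, adjusted p = 0.0122). The call ended without the pair block (adjusted p = 0.0599) and without replicate 4 of both groups (adjusted p = 0.0653).

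The host mRNA did not show the drop of SNR44 in the test. On the probe set chosen for it, RPS22B had 914, 1207, 1376 and 1174 with Upf1p-TAP, against 719, 1071, 1106 and 837 in the mock. The values overlapped and the ratio was 0.33 (adjusted p = 0.157). Its other probe sets, whose names are not of the plain form, had ratios of -0.36 and 0.02 and were not called either. RPS22B has a close copy elsewhere in the genome, so these probe sets may read both. NOG2, the host of the unmeasured SNR191, had a log2 ratio of -0.32 (adjusted p = 0.164). The difference between SNR44 and its host was not tested.

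The 3 members that did not pass were SNR43 and SNR5, guides of 25S rRNA, and SNR31, a guide of 18S rRNA. SNR5 had 583, 563, 1051 and 863 with Upf1p-TAP, against 767, 842, 508 and 2025 in the mock, a log2 ratio of -0.29 (adjusted p = 0.524) with a 95% interval from -0.996 to 0.42. SNR31 had 55.4, 57.8, 74.4 and 80.1 with Upf1p-TAP, against 131, 92.1, 45.0 and 217 in the mock, a log2 ratio of -0.63 (adjusted p = 0.172) with a 95% interval from -1.37 to 0.10. SNR43 had 61.0, 53.8, 52.6 and 63.0 with Upf1p-TAP, against 98.1, 105 and 40.2 in mock replicates 1 to 3 and 203 in mock replicate 4. Its log2 ratio was -0.71 (adjusted p = 0.105), with a 95% interval from -1.39 to -0.03 that carries no adjustment for the other probe sets.

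In each of these 3 snoRNAs the ratio was below 0 in pairs 1, 2 and 4 and above 0 in pair 3, where 50.9% of all tested probe sets were above 0 and the other 14 members were below. Without replicate 3 of both groups all 17 members were lower, with SNR43 at -1.07 (adjusted p = 0.0209), SNR31 at -1.07 (adjusted p = 0.0160) and SNR5 at -0.73 (adjusted p = 0.0384). As pair 3 held the only ratio above 0 of each of these 3, leaving it out had to lower their ratios. The count of 17 is therefore no separate evidence that they are lower. Without replicate 4, 12 were lower and SNR5 was at 0.02. SNR31 and SNR5 are next to each other in the gene table, with no annotated gene between them, which was looked up after their values were seen. Whether the array tells their transcripts apart was not tested.

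**Figure D2:**
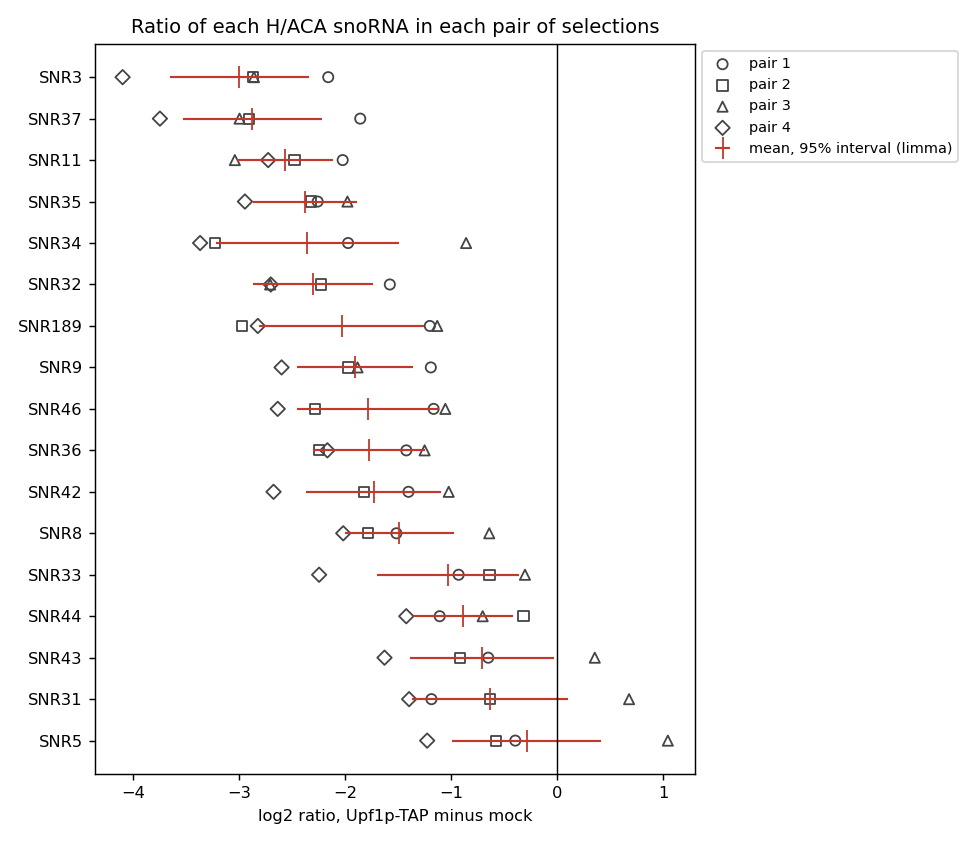
log2 ratio (Upf1p-TAP minus mock) of each H/ACA snoRNA, 1 row per snoRNA. Open markers are the 4 pairs, and red bars give the limma mean with its 95% interval; 14 rows lie below 0 in all 4 pairs, while SNR43, SNR31 and SNR5 are above 0 in pair 3.

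The drop was found in every pair, but its size differed between pairs. The median ratio over the 17 members was -1.40, -2.23, -1.05 and -2.64 in pairs 1 to 4, against 0.02, 0.04, 0.02 and 0.04 over all tested probe sets. Pair 4 had the lowest ratio of the 4 for 13 members, and pair 3 the highest for 11. The median SD of a member's ratio over the pairs was 0.78, compared with 0.44 over all tested probe sets. Members below 0 in all 4 pairs numbered 14, where 22.1% of all tested probe sets were. Members with every Upf1p-TAP value below every mock value numbered 13, where 11.1% of all tested probe sets were.

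The order of the members was alike from pair to pair. Spearman correlations of the ratio between pairs, across the 17 snoRNAs, ran from 0.71 to 0.90, and across all tested probe sets from 0.53 to 0.68. Pearson correlations ran from 0.72 to 0.87 across the 17 snoRNAs and from 0.60 to 0.74 across all tested probe sets. These are descriptions across probe sets of the same arrays.

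Most members varied more across the mock arrays than across the Upf1p-TAP arrays. For 15 of 17 members the SD of the log2 signal was larger over the mock arrays than over the Upf1p-TAP arrays, which held for 40.6% of all tested probe sets. The exceptions were SNR11 and SNR32. The median SD of a member was 0.43 over the Upf1p-TAP arrays and 0.84 over the mock arrays, and over all tested probe sets it was 0.38 with Upf1p-TAP and 0.33 in the mock. Mock replicate 4 was the brightest mock array for 17 of 17 members (18.5% of all tested probe sets), and mock replicate 3 the dimmest for 14 (23.4%). The median signal of the 17 was 85.0, 70.9, 59.7 and 80.1 on the Upf1p-TAP arrays, against 285, 361, 195 and 711 on the mock arrays. The Upf1p-TAP medians thus lay close together and the mock medians did not.

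Other noncoding RNAs and the poly-A spike-in controls were, like the members, lowest in pair 4 and highest in pair 3, whereas rRNA and hybridization controls had other orders. Box C/D snoRNAs, which guide ribose methylation, had median ratios of -1.45, -2.15, -1.33 and -2.40 in pairs 1 to 4. Of 40 measured, 33 were lower and 0 higher, where 13.5% of all tested probe sets were lower and 17.7% higher. Other noncoding RNAs, such as the RNase P subunit RPR1 (log2 ratio -2.39) and the U1 snRNA SNR19 (-1.73), had medians of -0.95, -2.16, -0.90 and -2.48. Of 6 measured, 5 were lower and 0 higher, beside the same shares of all tested probe sets. The 12 probe sets for the poly-A spikes, bacterial RNAs meant to be added before labelling, had median ratios of -2.004, -2.92, 0.04 and -3.98, with pair 3 near background on both arrays. The 9 for hybridization spikes, meant to be added after labelling, had -0.59, -0.76, -0.65 and -0.81, a narrow range. Control probe sets for rRNA, 5 for each rRNA, had median ratios of -0.60, -1.48, -0.40 and -0.16 for 25S rRNA and of 0.16, -3.01, -0.0010 and -0.77 for 18S rRNA. The part of labelling or of spike amount in the snoRNA ratios was not tested, and neither was the difference between H/ACA and box C/D snoRNAs. TLC1, the telomerase RNA, was the exception among the other noncoding RNAs, with 372 ± 75.6 against 383 ± 74.5 in the mock (SD, n = 4) and a ratio of -0.04.

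**Figure D3:**
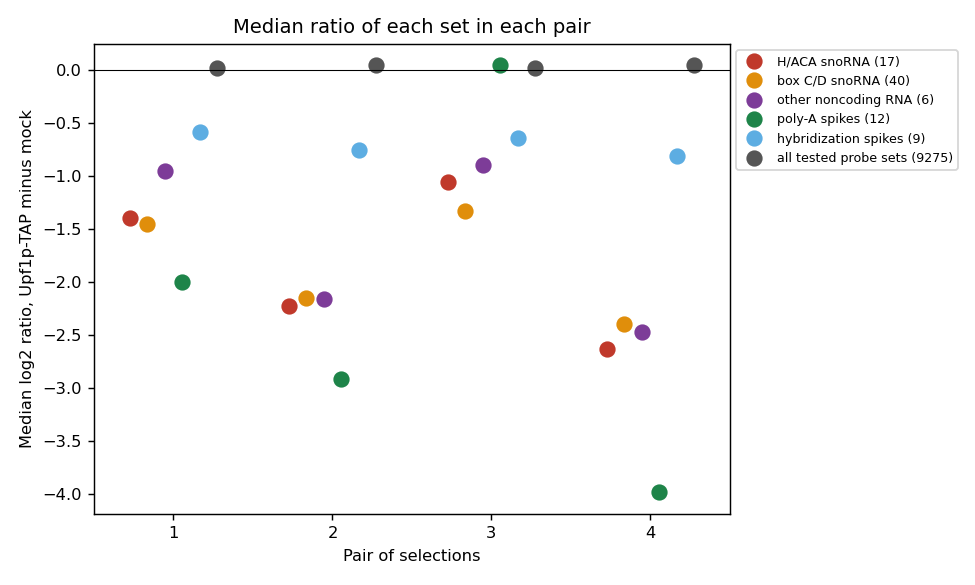
Median log2 ratio (Upf1p-TAP minus mock) in each of the 4 pairs for H/ACA snoRNAs, box C/D snoRNAs, other noncoding RNAs, poly-A spikes, hybridization spikes and all tested probe sets, with the number of probe sets in brackets. Points of a pair are shifted sideways so that they can be told apart; H/ACA snoRNAs are lowest in pair 4 (-2.64) and highest in pair 3 (-1.05).

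The ratio of an H/ACA snoRNA had no steady relation to its mock signal, and the sign of the correlation differed between pairs. The correlation across the 17 members was computed within each pair, with the mock level taken as the mean of the other pairs. Pearson's r was -0.17, 0.15, -0.15 and 0.10 in pairs 1 to 4, and Spearman's rho -0.19, 0.19, -0.10 and 0.12. Across all tested probe sets Pearson's r was -0.11, -0.15, -0.16 and -0.06. The brightest members in the mock illustrate this, as SNR8 (2512 ± 1165), SNR11 (2319 ± 787), SNR44 (1220 ± 578) and SNR5 (1036 ± 675) (SD, n = 4) had log2 ratios of -1.49, -2.57, -0.89 and -0.29. The signal of a probe set depends on its probes as well as on the RNA, so these levels do not rank the snoRNAs by abundance.

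When all tested probe sets were ordered by mock signal and cut into 10 bins of equal size, all 17 members lay in the brighter bins, 6 to 10. Unlike the correlations above, the bins used the same mock arrays that enter the ratio. A probe set high in the mock is thus placed in a bright bin by the group where it is high. A fall of the ratio from bin to bin can be partly built in. In those bins the median ratio of all probe sets ran from 0.12 in bin 6 to -0.26 in bin 10, and the share called lower from 12.4% to 29.8%. The members' medians in the same bins lay between -2.36 and -1.19. In bin 10, SNR5 at -0.29 was near the median of that bin, whereas SNR11, SNR8 and SNR44 were below it. With Upf1p-TAP, 7 of the 17 had a mean signal below the median of all values, and 0 below the 25th percentile.

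**Figure D4:**
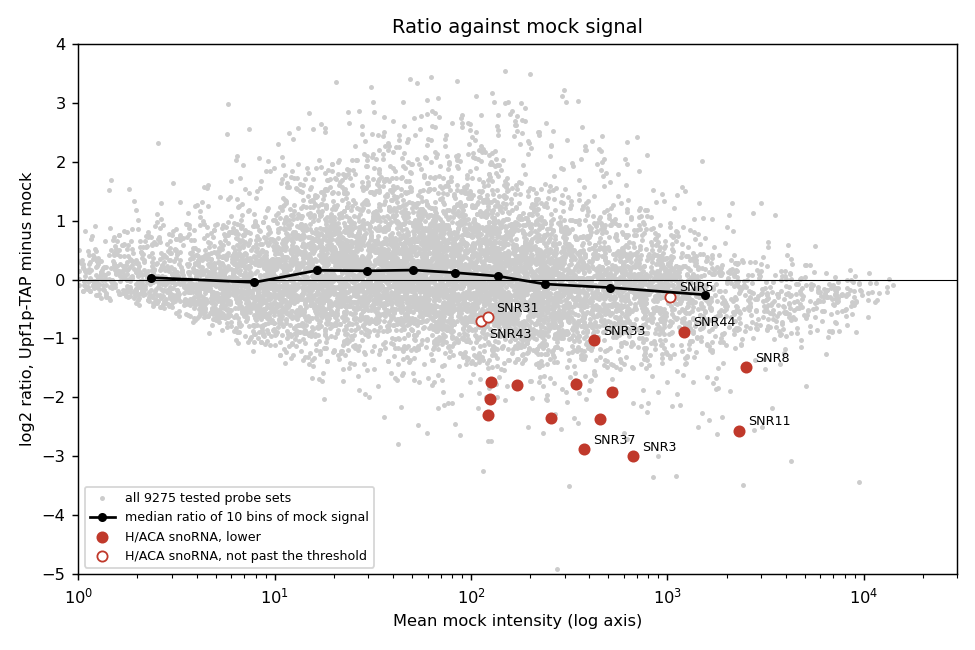
log2 ratio (Upf1p-TAP minus mock) against the mean mock intensity (log axis). Grey points are tested probe sets (176 of them lie outside the axes), the black line joins the median ratios of 10 bins of mock signal, and red points are the 17 H/ACA snoRNAs, filled where lower (14) and open where not past the threshold (3); the red points spread from -3.00 to -0.29 with no slope along the mock axis.

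Among mRNAs for the core proteins of the H/ACA particle, 1 of 3 measured was lower and 0 higher in limma, and 2 and 0 at an unadjusted p below 0.05. For these small lists the shares of all tested probe sets are 13.5% lower and 17.7% higher when adjusted, and 19.3% and 23.1% when not. CBF5, which encodes the synthase, had 1859, 1209, 1295 and 896 with Upf1p-TAP, against 2784, 1972, 2350 and 1999 in the mock. The groups did not overlap, and CBF5 was lower, with a log2 ratio of -0.82 (SE 0.17, adjusted p = 0.00564). NHP2 had a ratio of -0.40 (adjusted p = 0.113) and GAR1 of -0.23 (adjusted p = 0.275). NHP2 was called without replicate 3 (-0.59, adjusted p = 0.0166). NOP10 had no probe set of its own.

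Of 4 genes for assembly factors of the particle, 1 was higher and 0 lower in limma, and 1 each at an unadjusted p below 0.05. NAF1, which binds Cbf5p before Gar1p does, had 121, 282, 337 and 326 with Upf1p-TAP, against 75.5, 131, 141 and 99.9 in the mock. The groups overlapped only through Upf1p-TAP replicate 1, and the log2 ratio was 1.16 (SE 0.22, adjusted p = 0.00414). RVB2 (-0.43), RVB1 (-0.29) and SHQ1 (-0.65) did not pass. SHQ1 varied widely in pair 3, and without replicate 3 its ratio was 0.02. RVB2 was called lower when arrays were centred on their medians (-0.57, adjusted p = 0.0348).

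Genes that mature snoRNAs went both ways, with 3 of 13 higher, 2 lower and a median of -0.27, counts near the 17.7% higher and 13.5% lower of all tested probe sets. SEN1 was counted through 1 probe set (-0.27, not called). Of its dimmer probe sets, those with mean mock signals of 11.1 and 44.3 were called lower (-1.19 and -1.17, adjusted p = 0.0353 and 0.0272), and the others were not called. RNT1 encodes the RNase III that cuts snoRNA precursors. It had 361, 774, 586 and 482 with Upf1p-TAP, against 104, 182 and 160.1 in mock replicates 1 to 3 and 106 in mock replicate 4. The groups did not overlap, at a log2 ratio of 1.95 (SE 0.19, adjusted p = 1.20e-04). AIR1 (0.88), part of a complex that tags nuclear RNAs for the exosome, and TGS1 (0.79), which makes the trimethyl cap of snoRNAs, were higher too. The nuclear exosome helicase gene MTR4 (-1.31, adjusted p = 0.00323) and the exosome cofactor gene MPP6 (-0.91, adjusted p = 0.00763) were lower. RRP6 (-0.61), a nuclear exosome nuclease gene, did not pass (adjusted p = 0.0552), but was called lower after quantile normalization (adjusted p = 0.0190), after median centring (0.0161), with dim probe sets left out (0.0346) and with probe sets averaged per gene (0.0499). The AIR1 call ended without the pair block (adjusted p = 0.0646), without replicate 1 and without replicate 4 (highest adjusted p = 0.0869), and the TGS1 call without replicate 1, 2 or 4 (highest adjusted p = 0.115).

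Genes for stand-alone pseudouridine synthases, which need no guide RNA, gave 4 of 8 higher and 0 lower in limma (17.7% and 13.5% of all tested probe sets), and 5 and 0 at an unadjusted p below 0.05, with a median of 0.64. RIB2 (1.17, adjusted p = 0.00297) and PUS1 (1.04, adjusted p = 0.0042), both with targets in tRNA, were higher under every alternative tried. DEG1 (0.78) and PUS6 (0.61), also for tRNA, were higher in the main analysis. The DEG1 call ended without replicate 2, 3 or 4 (adjusted p up to 0.145) and the PUS6 call without any 1 of the replicates (adjusted p up to 0.170), and both ended without the pair block and under both other scalings. PUS5 (0.67), for mitochondrial rRNA, and PUS4 (-0.40), for tRNA, did not pass, though PUS5 was called without replicate 3 (0.88, adjusted p = 0.0228), with dim probe sets left out (adjusted p = 0.0376) and with probe sets averaged per gene (adjusted p = 0.0472). These groups of mRNAs are small, and the differences between them and the snoRNAs were not tested.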

How the data were processed

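RNA of 4 Upf1p-TAP and 4 mock selections was measured on Affymetrix Yeast Genome S98 arrays. The authors deposited linear intensity values, 1 table of 9335 probe sets. The submitters' processing notes name GCOS, with no version or settings. The values had been scaled: the trimmed mean of every array (2% left out at each end) was between 250.2 and 250.3. No 2 arrays held identical values, and Pearson correlations of the log2 signal were 0.95 to 0.98 within Upf1p-TAP, 0.97 to 0.98 within the mock and 0.90 to 0.94 between groups. The number of arrays limits the precision. Detection calls were not used here.

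Without its 60 control probe sets the table held 9275, of which GEO's platform annotation gives 1 gene to 6504, several to 328 and none to 2443. Symbols were updated through the RefSeq R64 gene table, which also gave neighbouring genes. The sources used here do not give the build of the array's design, so no coordinates are printed, and no snoRNA sequence was used here. limma 3.58.1 (R 4.3.3) fitted log2(intensity + 4.09), where 4.09 is the 10th percentile of all tested values, with the pair as a block and an intensity trend in eBayes. Ratios on this scale understate changes of dim RNAs. SE is limma's moderated standard error, and tests are two-sided. On simulated data for this comparison with 9275 probe sets, 74% of 2-fold and 100% of 4-fold changes were recovered. The simulation changed 200 probe sets, and 12 unchanged ones were called. It gave both groups the same spread, whereas most H/ACA snoRNAs varied more in the mock, so these shares need not hold for them.

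Pairs are those of the design text, which calls them independent. As a check, deviations from the group means correlated at 0.19 to 0.56 between arrays of the same number, and at -0.55 to 0.35 otherwise. The 0.35 was between Upf1p-TAP replicate 2 and mock replicate 3, above the 0.19 of pair 2 and the 0.26 of pair 3. The check thus did not single out pairs 2 and 3. Separate cultures are not stated in the labels, so p-values cover the spread among these selections, which may be technical.

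The members and lists were chosen with earlier results of these data known, so no list is tested as a set. Every measured member is named. From the lists of related genes, all core and host genes and up to 6 genes per list with the smallest p are named, and from the other noncoding RNAs RPR1, SNR19 and TLC1 were picked after their values were seen. Of several probe sets of a gene, one with a plain name was preferred to one whose name carries an added mark, and then the brightest was taken.

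The alternatives tried were no offset, an offset of 16.0 (the 25th percentile), quantile normalization, median centring, leaving out dim probe sets, no pair block, no intensity trend, averaging the probe sets of a gene, and leaving out each pair.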

Additional observations from a re-analysis of the deposited data

Results flagged for a closer look

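Among 114 sets of 4 values (38 genes, each with its Upf1p-TAP arrays, its mock arrays and its ratios over the pairs), 6 held a value far from the other 3. Chance alone gives about 1 in 20. None of the 6 belonged to an H/ACA snoRNA, and all 6 were in pair 3. SHQ1 was low with Upf1p-TAP (7.14) and high in the mock (67.2) in pair 3, with a ratio of -2.67 there. The pair 3 ratio of NHP2 (0.17) was high, and those of RVB2 (-0.81) and TGS1 (0.18) were low, compared with the other pairs. Whether pair 3 differs for a technical reason was not tested.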

How the results depend on the processing

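The count of lower H/ACA snoRNAs was 14 under 7 of 8 alternatives other than leaving out a pair, and 13 with no replicate block, where SNR44 was lost (adjusted p = 0.0599). Each measured member has 1 probe set, so averaging probe sets could not change its values. The filter on dim probe sets kept 7 of the 17 through their mock mean alone, as their Upf1p-TAP mean was below the median of all values. Agreement under these settings is thus a weak check. Leaving out 1 pair gave 12 to 17 lower, and 0 were higher under any alternative. Their median ratio ranged from -1.99 (without replicate 1) to -1.64 (without replicate 4, and also with the higher offset). Over the 17 snoRNAs and 12 alternatives, 196 of 204 values kept direction and side of the threshold. This total includes settings that leave a member's ratio as it was, so that its direction could not change. They are leaving out dim probe sets, no pair block, no intensity trend and averaging probe sets. Leaving out 1 pair gave SNR5 ratios from -0.73 (without replicate 3) to 0.023 (without replicate 4) and SHQ1 ratios from -0.89 (without replicate 2) to 0.019 (without replicate 3). RPS22B was at -0.0010 with the mean of its probe sets. The median correlation of ratio and mock signal over the pairs was -0.026, and 0.028 under no offset. It was -0.085 with the mock level of the same pair and -0.13 with the higher offset. Under the higher offset Pearson's r was -0.33, 0.035, -0.25 and -0.0082 in pairs 1 to 4. The median ratio of all tested probe sets was -0.034 after quantile normalization, -0.14 after median centring and 0.021 with dim probe sets left out. Leaving out 1 pair gave -0.0021 to 0.023, with 775 to 953 lower probe sets against 1249, and 1076 to 1384 higher against 1642. The median ratio of the 17 H/ACA snoRNAs was -1.93 after median centring and -1.91 after quantile normalization. Hybridization spikes had median ratios of -0.59, -0.76, -0.65 and -0.81 in pairs 1 to 4. The part of scaling in the snoRNA ratios was not tested. With no replicate block 931 probe sets were lower and 1340 higher. The cause of these changes was not tested. Values near the offset, such as SNR32 with Upf1p-TAP in pair 3, limit the size of a ratio but not its sign here.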
